A study of Mus musculus with 5 samples.

Results

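Toll-like receptors (TLRs) and the IL-1 system were followed through 9 genes, Tlr2, Tlr4, Cd14, Myd88, Il1b, Il1rn, Il1r2, Nlrp3 and Casp1, in mouse bone marrow (BM) after cyclophosphamide (CTX), an alkylating chemotherapy drug. The genes were taken by symbol, and all 9 were found among the 31053 genes of the files. Single-cell RNA was measured in 5 libraries from BALB/c mice, which the study's methods give as 4 to 8 weeks old. For 3 libraries of whole BM, live cells of 3 mice per condition were pooled in equal numbers, from untreated (naive) mice and from mice 2 days (D2 CTX) or 7 days (D7 CTX) after 150 mg/kg CTX into the peritoneum, and the labels give these cells as CD45+ BM mononuclear cells. The other 2 libraries, naive sorted and CTX sorted, hold CD11b+Ly6Chi monocytes sorted from BM of untreated or CTX-treated mice. For the sorted cells the labels give neither the day nor the number of mice, and the study's text describes day 7. Each condition was 1 library, so no difference between conditions could be tested, and every 95% interval below covers counting error only, not the spread between mice.

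The libraries held 22694817 to 68459527 unique molecular identifiers (UMIs, counts of single captured RNA molecules) in 2223 to 8605 barcodes. Of 28063 barcodes, 25975 passed the limits on genes and mitochondrial UMIs, with median depths per library of 3033.5 to 10299 UMIs per cell. Any pair of libraries shared 2 to 16 barcodes. Cells were put into classes, called gates here, by their score over marker genes, and none of the 9 genes was a marker. Although the label reads mononuclear cells, the mature and immature neutrophil gates together held 763 and 1441 of 7104 naive cells, 1084 and 1375 of 6126 D2 cells and 695 and 3251 of 8290 D7 cells. In the sorted cells outside any subset gate, the 7 monocyte markers summed to 7059 CPM (UMIs of a gene per 1000000 UMIs of all genes) in naive and 7163 CPM in CTX, and the 6 B lineage markers to 26.1 and 27.6 CPM. The 4 plasma cell markers summed to 278 CPM there in naive and 1.69 CPM in CTX, so the naive sorted library carried RNA of another cell type.

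TLRs are membrane receptors for microbial products and for some products of damaged cells. Tlr2 recognizes bacterial lipoproteins and Tlr4 recognizes lipopolysaccharide, for which Cd14 is a co-receptor, and Myd88 is the adaptor that carries the signal of most TLRs and of the IL-1 receptor to NF-kB. NF-kB drives transcription of Il1b, which encodes the precursor of the cytokine IL-1β, and of Nlrp3, the sensor of an inflammasome that activates caspase-1, the product of Casp1, to cut that precursor. Il1rn encodes the IL-1 receptor antagonist and Il1r2 a decoy receptor without a signaling domain, and both limit IL-1. Neutrophils and monocytes of the marrow are known sources of these transcripts.

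The sequences before the start sites of 4 of the genes are shown, since the values of the ligand Il1b, the antagonist Il1rn, the sensor Nlrp3 and the protease Casp1 are compared with each other in neutrophils below. Each run is the 250 bases upstream of a RefSeq start site on the strand of the gene, build GRCm38.p6, and capitals mark a match to 1 of the motifs searched. Il1b lies at chr2:129371140-129371389 (minus strand), Il1rn at chr2:24336610-24336859 (plus strand), Nlrp3 at chr11:59541319-59541568 (plus strand) and Casp1 at chr9:5298267-5298516 (plus strand).
Il1b: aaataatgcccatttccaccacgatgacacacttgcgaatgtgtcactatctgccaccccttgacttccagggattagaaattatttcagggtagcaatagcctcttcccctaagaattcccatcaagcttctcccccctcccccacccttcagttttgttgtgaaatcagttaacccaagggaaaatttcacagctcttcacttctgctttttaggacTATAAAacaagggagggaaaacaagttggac
Il1rn: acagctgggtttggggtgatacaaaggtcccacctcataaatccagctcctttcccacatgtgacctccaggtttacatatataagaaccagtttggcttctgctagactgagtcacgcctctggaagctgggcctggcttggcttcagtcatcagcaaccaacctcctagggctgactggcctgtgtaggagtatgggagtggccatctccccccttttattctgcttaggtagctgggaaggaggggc
Nlrp3: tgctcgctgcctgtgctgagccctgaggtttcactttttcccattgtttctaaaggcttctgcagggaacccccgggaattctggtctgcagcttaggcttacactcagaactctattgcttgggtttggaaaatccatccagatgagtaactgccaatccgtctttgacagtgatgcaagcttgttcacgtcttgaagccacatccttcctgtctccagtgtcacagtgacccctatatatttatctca
Casp1: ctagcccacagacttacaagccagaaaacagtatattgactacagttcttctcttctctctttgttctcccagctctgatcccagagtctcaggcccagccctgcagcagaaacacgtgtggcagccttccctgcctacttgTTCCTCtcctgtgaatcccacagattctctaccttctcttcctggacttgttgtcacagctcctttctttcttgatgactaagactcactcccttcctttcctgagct
Of the 9 genes, 7 had such windows, 10 in all. The motifs, searched on both strands, were GAGGAA (a PU.1-type core, in 23.3% of 32851 windows), GGGA and TTCC set 2 bases apart (NF-kB type, in 1.21%), TTNNGCAA (C/EBP type, in 9.56%) and TATAAA (the TATA box, in 12.4%). Il1b held TATAAA from base -31 to -26 before its start, and Casp1 held GAGGAA on the opposite strand from -108 to -103. The windows printed for Il1rn and Nlrp3 held none of the 4 motifs, which says only that these letters were not in them. A second Nlrp3 window (chr11:59542436-59542685, plus strand), before another start site, held GAGGAA 3 times, from -220 to -215, from -129 to -124 on the opposite strand, and from -36 to -31. A match is a run of letters, not a bound site.

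In the annotation (GRCm38) the genes lie apart from each other except that Myd88 and Casp1 share chromosome 9 and Il1b and Il1rn share chromosome 2. Il1b spans chr2:129364570-129371139 on the minus strand and overlaps the antisense gene Il1bos. Il1r2 (chr1:40074079-40125231) overlaps Gm37347 on its own strand, and Myd88 (chr9:119335934-119341411) overlaps Slc22a14, so that reads of these pairs could be split or lost in counting. The remaining members, Tlr2 (chr3:83836272-83841767), Tlr4 (chr4:66827584-66930284), Cd14 (chr18:36725067-36726798), Il1rn (chr2:24336853-24351494), Nlrp3 (chr11:59541568-59566956) and Casp1 (chr9:5298517-5307265), overlap no other annotated gene.

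In naive BM, the mature neutrophil gate had the highest CPM of 6 of the 9 genes among the gates of at least 20 cells. CPM is a share of the UMIs of a gate, not an amount per cell or per gate. Median depth was 2051 UMIs per cell in this gate, 4214 in immature neutrophils and 6455 in Ly6c2-high monocytes. Il1b reached 1158 CPM (interval 1105 to 1212) in the mature neutrophil gate, against 31.6 CPM (27.4 to 36.3) in the immature neutrophil gate that came next. Il1rn was at 129 CPM in mature and 55.3 CPM in immature neutrophils, and Il1r2 at 104 and 40.5 CPM in the same order. For Tlr2, Myd88 and Nlrp3 the next gate was the Ly6c2-high monocytes, with 54.3 against 136 CPM for Tlr2, 51.8 against 97.2 CPM for Myd88 and 38.7 against 177 CPM for Nlrp3. The intervals of the first and second gate did not overlap for any of these 6 genes. Il1b was itself among the 10 genes that set the mature neutrophil gate most apart from the rest, and the only member among those leading genes.

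Cd14, Tlr4 and Casp1 followed another order. Cd14 was highest in immature neutrophils (99.0 CPM), next to 94.9 CPM in a small macrophage gate whose interval overlapped, and was at 53.8 CPM in Ly6c2-high monocytes and 46.0 CPM in mature neutrophils. Tlr4 was nominally highest in the macrophage gate, from 2 UMIs, and overlapped with mature neutrophils (26.9 CPM), while Ly6c2-high monocytes had 7.9 CPM. Casp1 was spread over many classes, with 60.3 CPM in conventional dendritic cells, 49.4 CPM in Ly6c2-high monocytes, 23.7 CPM in mature neutrophils and 22.6 CPM in B lineage cells, and its nominal maximum in the macrophage gate rested on 4 UMIs. The Ly6c2-low monocyte gate, of 13 cells, was left out of this order, and had Il1b at 140 CPM from 6 UMIs and Casp1 at 93.6 CPM from 4 UMIs. Clusters made without the 9 genes, but named by the same marker scores as the gates, put the same class first for 9 of 9. The second class became macrophages for Il1b and Il1rn and Ly6c2-high monocytes for Casp1.

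**Figure D1:**
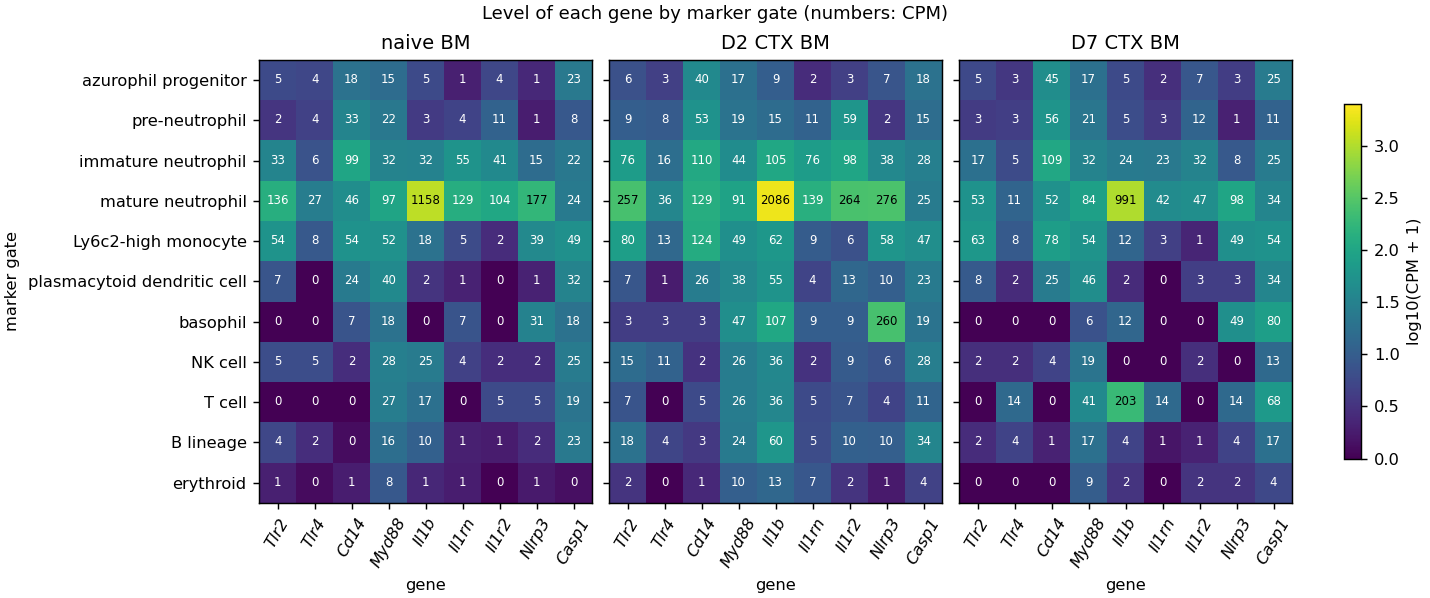
Level of each of the 9 genes (CPM, on a log scale) in the gates of naive, D2 CTX and D7 CTX BM. Il1b stands far above its other gates in mature neutrophils in each library (1158, 2086 and 991 CPM), while Cd14 is spread over immature neutrophils and monocytes. Levels in gates of few cells, such as the D7 T cells (15 cells), have wide counting intervals.

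Over whole libraries, all 9 genes were higher in D2 CTX than in naive BM with intervals above 0, by log2 ratios of 0.33 to 1.87, and at D7 the ratios over naive lay between -0.51 and 1.32. Il1b was at 53.6 CPM in naive, 171 CPM in D2 CTX and 51 CPM in D7 CTX BM, a log2 ratio of D2 over naive of 1.68 (1.61 to 1.75). Il1r2 was at 12.8, 46.9 and 18.2 CPM, a D2 log2 ratio of 1.87 (1.73 to 2.01), and this was the highest D2 ratio of the 9 genes. Il1rn was at 15.5, 29.3 and 10.9 CPM, a D2 ratio of 0.92 (0.78 to 1.06). All of these were highest at D2, and the ligand and the decoy receptor were further from naive than the antagonist.

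Among the receptors, Tlr2 was at 18.0 CPM in naive, 45.3 CPM in D2 and 16.3 CPM in D7 BM, a D2 log2 ratio of 1.34 (1.21 to 1.46). Tlr4 was lower in number and moved alike, at 4.47, 9.81 and 4.71 CPM, a D2 ratio of 1.13 (0.88 to 1.39). The co-receptor Cd14 was the exception in time, at 29.1, 52.9 and 72.8 CPM, so that D7 lay above D2 and its D7 log2 ratio over naive was 1.32 (1.23 to 1.41). Tlr2 and Tlr4 thus peaked at D2 and Cd14 at D7. Nlrp3 was at 14.0, 35.9 and 12.7 CPM, a D2 ratio of 1.36 (1.22 to 1.5), while Casp1 was at 18.5, 24.3 and 23.3 CPM and the adaptor Myd88 at 25.6, 32.3 and 30.9 CPM. The sensor of the inflammasome differed more at D2 than its protease, whose ratio was 0.40 (0.26 to 0.54), and more than Myd88, at 0.33 (0.21 to 0.45).

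**Figure D2:**
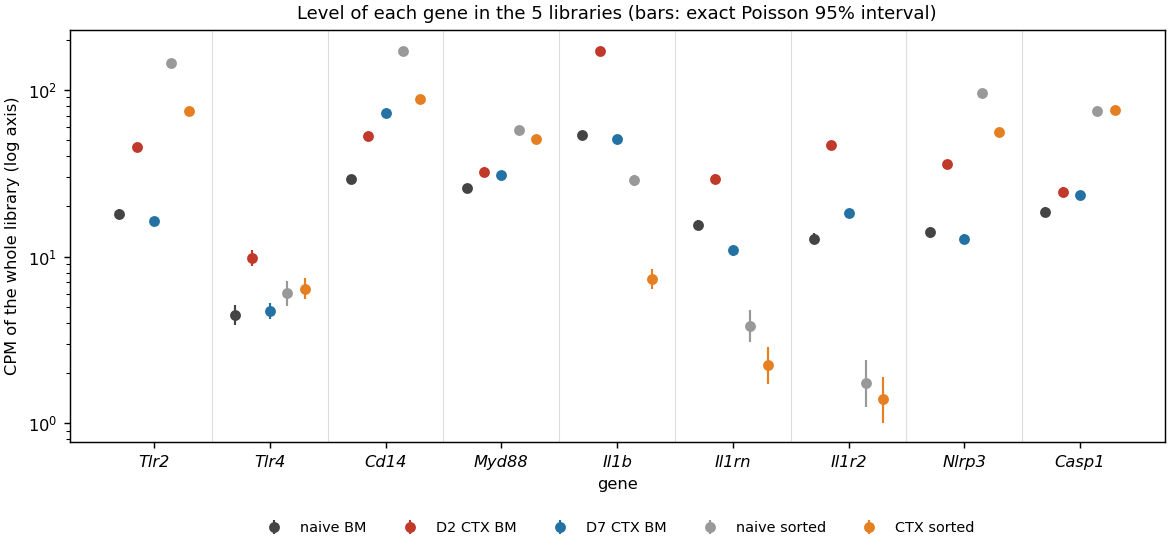
Level of each gene (CPM, log axis) in the 5 libraries, each point 1 library with its 95% counting interval. Il1b, Il1r2, Nlrp3 and Tlr2 are highest at D2 among the BM libraries, Cd14 at D7 (72.8 CPM), and Tlr2, Cd14, Nlrp3 and Il1b are lower in CTX sorted than in naive sorted monocytes.

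A gene was called past the fold if it differed by at least 1 log2 unit between libraries on the log2(CPM + 1) scale and had at least 50 UMIs over both. In D2 over naive BM, 4 of the 9 genes (Tlr2, Il1b, Il1r2 and Nlrp3) were past the fold and higher and 0 lower, beside 6.35% of all genes higher and 2.98% lower. The median of the 9 was 0.98, beside 0.20 over the 12671 genes compared. In D7 over naive BM, 1 (Cd14) was higher and 0 lower, beside 0.941% higher and 22.5% lower of all genes, and the median of the 9 was 0.06 beside -0.57 over all genes. In D7 over D2, which shares the D2 library with the first comparison, 0 were higher and 5 lower (Tlr2, Il1b, Il1rn, Il1r2 and Nlrp3), beside 1.02% and 36.0% of all genes. Since the median gene of D7 BM lay 0.57 below naive and 0.76 below D2, small D7 ratios depend on the scaling: Tlr2 (-0.14), Il1b (-0.07), Il1rn (-0.51) and Nlrp3 (-0.14) over naive became 0.43, 0.50, 0.07 and 0.43 when scaled to the median gene, and the count of 5 lower over D2 became 0. That scaling turned the split of all genes past the fold from 117 higher and 2793 lower to 775 and 784 in D7 over naive, from 128 and 4503 to 873 and 999 in D7 over D2, and from 804 and 377 to 436 and 561 in D2 over naive.

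A whole-library sum cannot tell fewer cells of a type from less RNA per cell, so the gates were read next. Of all Il1b UMIs, 73.4% in naive, 69.5% in D2 and 68.0% in D7 BM came from the mature neutrophil gate, which held 3.4%, 5.7% and 3.5% of the UMIs of all genes. Immature neutrophils carried more of Il1rn and Cd14 than any other gate did, with 49.9%, 47.7% and 66.0% of Il1rn and 47.4%, 38.5% and 47.8% of Cd14 UMIs. Nlrp3 was divided between mature neutrophils (43.0%, 43.8% and 27.1%), Ly6c2-high monocytes (24.4%, 10.5% and 36.0%) and immature neutrophils. The immature neutrophils held 95, 239 and 172 Nlrp3 UMIs, against 157, 128 and 311 in these monocytes. Tlr2 was split nearly evenly in naive BM between the Ly6c2-high monocytes (26.6%), immature (25.9%) and mature neutrophils (25.8%). At D7 the Tlr2 shares were 36.3%, 33.2% and 11.4% in the same order. The sources of these transcripts therefore differed between genes of the same pathway.

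**Figure D3:**
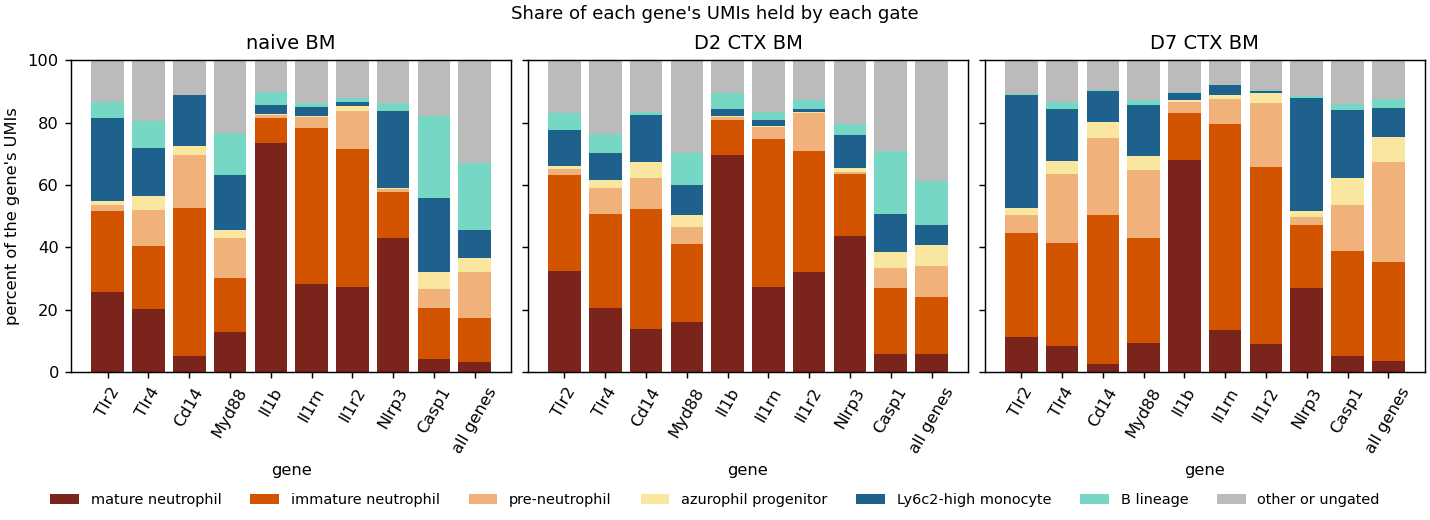
Share of the UMIs of each gene (percent) that came from each gate in naive, D2 CTX and D7 CTX BM. Il1b is mostly in mature neutrophils (73.4, 69.5 and 68.0%), Cd14 and Il1rn have their largest share in immature neutrophils, and Casp1 and Myd88 are spread over many gates.

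The 3 BM libraries were then set to the naive gate sizes, so that the sizes of the gates no longer differed. What remained is called levels here. It still holds differences in the makeup of a gate, which the clusters below show for neutrophils. These values have no counting interval. At D2 the log2 ratio over naive was then 1.14 for Il1b, 1.56 for Il1r2, 1.0 for Tlr2, 0.98 for Nlrp3, 0.65 for Cd14 and 0.54 for Il1rn. With naive levels at the D2 gate sizes, only gate sizes differed, which is called composition here. The ratios were then 0.68, 0.48, 0.36, 0.44, 0.27 and 0.52 in the same order. Both parts lay above 0 for each of these genes at D2. At D7 levels lay below 0 and composition above 0 for 5 of these 6 genes, at -1.28 and 0.75 for Il1rn, -0.52 and 0.42 for Tlr2, -0.29 and 0.79 for Il1r2, -0.20 and 0.26 for Nlrp3 and -0.19 and 0.14 for Il1b. Cd14, the sixth, had both parts above 0 at D7, 0.50 for levels and 0.87 for composition. The remaining genes, Tlr4, Myd88 and Casp1, had D7 levels at -0.14, 0.03 and 0.21 and composition at 0.43, 0.27 and 0.09. Their D2 levels were at 0.83, 0.14 and 0.35 and composition at 0.39, 0.23 and 0.17.

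The mature neutrophil gate had higher Tlr2, Cd14, Il1b, Il1r2 and Nlrp3 at D2 than in naive BM, and lower Tlr2, Tlr4, Il1b, Il1rn, Il1r2 and Nlrp3 at D7, and the gate was not made of the same cells in each library. Of 763 naive, 1084 D2 and 695 D7 cells, 302, 968 and 67 lay in 1 cluster, called the first here, and 408, 26 and 608 in a second, in clusters made without the 9 genes. Tlr2 was at 136 CPM in naive, 257 CPM in D2 and 52.9 CPM in D7 mature neutrophils, log2 ratios over naive of 0.91 (0.68 to 1.15) and -1.36 (-1.69 to -1.04). Il1r2 was at 104, 264 and 47.1 CPM, ratios of 1.35 (1.09 to 1.61) and -1.14 (-1.50 to -0.78). Nlrp3 was at 177, 276 and 98.3 CPM, ratios of 0.64 (0.43 to 0.85) and -0.85 (-1.11 to -0.59). For these 3 genes the D2 and D7 intervals lay on opposite sides of naive.

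Il1b was at 1158, 2086 and 991 CPM in the same cells, a D2 ratio of 0.85 (0.77 to 0.93) and a D7 ratio of -0.22 (-0.31 to -0.14). Its antagonist Il1rn was at 129, 139 and 42.0 CPM, with a D2 ratio of 0.12 (-0.15 to 0.39) that did not exclude 0 and a D7 ratio of -1.61 (-1.97 to -1.26), the lowest D7 ratio of the 9 genes in this gate. Over the gate Il1b was thus nearer to naive at D7 than the transcripts of both inhibitors were. Cd14 was at 46.0, 129 and 52.1 CPM, a D2 ratio of 1.48 (1.10 to 1.88), and Tlr4 at 26.9, 35.6 and 11.3 CPM, a D2 ratio of 0.41 (-0.17 to 1.0) that did not exclude 0 and a D7 ratio of -1.24 (-2.0 to -0.51). The adaptor Myd88 (97.2, 90.9 and 83.6 CPM) and the protease Casp1 (23.7, 25.3 and 34.0 CPM) had intervals that included 0 in both comparisons. At D2, 2 of the 9 genes (Cd14 and Il1r2) were past the fold and higher and 0 lower in mature neutrophils, beside 9.36% of all genes higher and 0.495% lower. Relative to the median gene, the split of all genes at D2 went from 416 higher and 22 lower to 118 and 120. At D7, 0 of the 9 were higher and 4 (Tlr2, Tlr4, Il1rn and Il1r2) lower, beside 1.65% and 3.02%. The D7 split went from 72 and 132 to 96 and 109.

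In the cluster that held most D7 cells of the gate, Tlr2, Il1rn, Il1r2 and Nlrp3 were below naive at D7 and Il1b was above it. Among the first cluster's cells, the D2 ratios over naive were 1.12 (0.75 to 1.5) for Tlr2, 1.58 (0.98 to 2.24) for Cd14, 1.12 (0.77 to 1.49) for Il1r2 and 0.46 (0.17 to 0.75) for Nlrp3, while Il1b was at 0.20 (0.11 to 0.30) instead of 0.85. Among the second cluster's cells, the D7 ratios were -1.51 (-1.89 to -1.13) for Tlr2, -1.74 (-2.16 to -1.32) for Il1rn, -1.05 (-1.49 to -0.60) for Il1r2 and -0.69 (-1.01 to -0.37) for Nlrp3, while Il1b was above naive at 0.48 (0.35 to 0.62) instead of -0.22. In the 67 D7 cells of the first cluster, Il1b was at 0.01 (-0.15 to 0.18) over naive and Il1rn at -1.07 (-2.09 to -0.18). The Il1b ratio of the whole gate at D7 thus had the opposite sign to that in its most filled cluster.

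The mature neutrophil gate differed between libraries in other ways too. Its median depth was 2051 UMIs per cell in naive, 1386.5 in D2 and 3357 in D7. The 7 markers of its own list summed to 10645, 11679 and 9255 CPM and the 6 immature neutrophil markers to 4102, 5411 and 3511 CPM. The erythroid list summed to 236, 639 and 9.2 CPM and the B lineage list to 49.2, 135 and 2.9 CPM in this gate, with 0 of 6 B lineage markers at 0 UMIs in naive and D2, and both lists were highest at D2. Other lists were highest in naive, with T cell markers at 285, 188 and 199 CPM, azurophil progenitor markers at 572, 84.1 and 426 CPM and Ly6c2-high monocyte markers at 419, 337 and 263 CPM. Of the 6 T cell markers, however, 4 were at 0 UMIs in naive, 0 in D2 and 4 in D7. Relative to the median gene of the gate, which lay 0.38 above naive at D2, the D2 ratios of Tlr2, Il1b, Il1r2, Nlrp3 and Cd14 were 0.53, 0.47, 0.97, 0.26 and 1.10. With the B lineage level of each library subtracted they were 0.86 for Tlr2, 0.82 for Il1b, 1.30 for Il1r2 and 0.60 for Nlrp3, and the part of depth was not tested.

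Immature neutrophils also had higher Tlr2, Il1b, Il1r2 and Nlrp3 at D2, from lower naive levels than mature neutrophils. The makeup of this gate moved as well, with the 7 pre-neutrophil markers summing to 72538 CPM in naive, 43235 CPM in D2 and 66471 CPM in D7, the 4 specific granule markers to 92735, 60989 and 86164 CPM and the 7 mature neutrophil markers to 2291, 3555 and 2013 CPM. Of 1441 naive, 1375 D2 and 3251 D7 cells, 615, 1005 and 716 lay in 1 cluster, 619, 46 and 1449 in another and 11, 9 and 661 in one more. Further cells lay in the main clusters of the mature gate, with 123, 24 and 385 in its second and 14, 191 and 1 in its first. Il1b was at 31.6 CPM in naive, 105 CPM in D2 and 24.3 CPM in D7, ratios over naive of 1.73 (1.51 to 1.97) and -0.38 (-0.62 to -0.14). The D2 value has to be read beside 60.3 CPM of Il1b in B lineage cells of that library, and with this level subtracted the ratio was 1.06. Tlr2 was at 33.4, 75.9 and 16.9 CPM, ratios of 1.19 (0.95 to 1.43) and -0.98 (-1.22 to -0.73), and Nlrp3 at 14.8, 38.2 and 8.0 CPM, ratios of 1.37 (1.02 to 1.72) and -0.90 (-1.27 to -0.52). The receptor and the sensor were above naive at D2 and below it at D7 in both neutrophil gates. In the cluster of 615 naive and 1005 D2 cells alone, D2 ratios were smaller, at 0.71 (0.40 to 1.03) for Tlr2, 0.51 (0.22 to 0.81) for Il1b, 0.88 (0.60 to 1.17) for Il1r2 and 0.69 (0.22 to 1.18) for Nlrp3. Its D7 ratios were -1.22 (-1.64 to -0.81) for Tlr2, -0.73 (-1.31 to -0.15) for Nlrp3, -1.53 (-1.94 to -1.12) for Il1b and -1.41 (-1.73 to -1.09) for Il1rn. In the cluster of 619 naive and 1449 D7 cells Il1rn was at -1.0 (-1.37 to -0.63), while Tlr2 at -0.46 (-0.93 to 0.02) and Il1b at 0.70 (-0.28 to 1.84) did not exclude 0. In that of 123 naive and 385 D7 cells, Il1b was above naive at 0.55 (0.06 to 1.07) and Cd14 at 1.14 (0.38 to 2.01). There Tlr2 was at -1.11 (-1.72 to -0.46) and Il1rn at -1.08 (-1.73 to -0.39). The cluster of 14 naive and 191 D2 cells held 234 of the 659 D2 Il1b UMIs of the gate, at 353 CPM (309 to 401).

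The inhibitors in immature neutrophils were Il1rn at 55.3, 75.7 and 22.6 CPM, a D7 ratio of -1.29 (-1.49 to -1.09), and Il1r2 at 40.5, 98.4 and 32.4 CPM, a D2 ratio of 1.28 (1.07 to 1.49) and a D7 ratio of -0.32 (-0.53 to -0.11). Cd14 was at 99.0, 110 and 109 CPM, with ratios of 0.16 and 0.14 although this gate carried the largest share of Cd14 UMIs, and the D2 ratio was -0.06 relative to the median gene. Tlr4 was at 6.4, 16.0 and 4.9 CPM. In this gate 5 of the 9 genes (Tlr2, Tlr4, Il1b, Il1r2 and Nlrp3) were past the fold and higher at D2 and 0 lower, beside 4.32% higher and 0.64% lower of all genes. At D7, 0 were higher and 1 (Il1rn) lower, beside 0.397% and 2.04%. Relative to the median gene the split of all genes went from 310 and 46 to 148 and 127 at D2 and from 32 and 164 to 68 and 93 at D7.

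**Figure D4:**
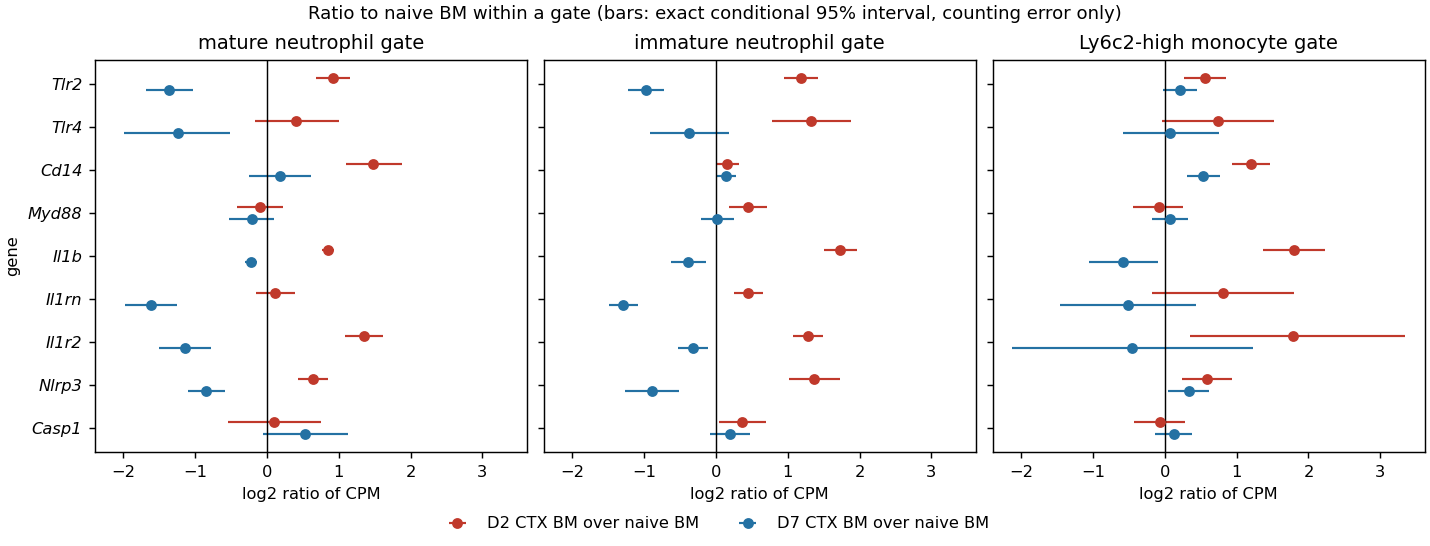
Log2 ratio of each gene over naive BM at D2 and D7 within the mature neutrophil, immature neutrophil and Ly6c2-high monocyte gates, with 95% counting intervals and a line at 0. Tlr2, Il1r2 and Nlrp3 lie above 0 at D2 and below 0 at D7 in both neutrophil gates, while in monocytes Cd14 lies above 0 at both times (1.2 and 0.53).

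The balance of ligand and inhibitor transcripts in mature neutrophils was compared between libraries as a ratio of UMIs, which are counts at the 3′ end and were not scaled to length. There were 9.01 Il1b UMIs per Il1rn UMI in naive, 15 in D2 and 23.6 in D7, log2 ratios of 3.17 (2.96 to 3.39), 3.90 (3.73 to 4.09) and 4.56 (4.27 to 4.86). None of these 3 intervals overlapped. Per Il1r2 UMI there were 11.2 in naive, 7.91 in D2 and 21.1 in D7, so that Il1b relative to its decoy receptor was lower at D2 and higher at D7 than in naive cells. This gate was filled by different clusters in each library. In its first cluster, with 968 of 1084 D2 cells, D2 over naive was 0.20 (0.11 to 0.30) for Il1b and 0.24 (-0.14 to 0.65) for Il1rn. The D2 difference in the balance of these 2 genes was thus not seen there. In the second cluster, D7 over naive was 0.48 (0.35 to 0.62) for Il1b and -1.74 (-2.16 to -1.32) for Il1rn. In immature neutrophils the Il1b to Il1rn ratio was 0.572, 1.39 and 1.07, with the antagonist the more counted transcript in naive cells. The Nlrp3 to Casp1 ratio in mature neutrophils was 7.49, 10.9 and 2.89.

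The share of cells with a transcript was compared after thinning each cell to 1000 UMIs. At that depth 50.4% (46.6 to 54.3) of naive, 61.5% (57.8 to 65.0) of D2 and 46.7% (42.9 to 50.5) of D7 mature neutrophils had an Il1b UMI. In B lineage cells, which are not known to make Il1b in quantity, the shares were 1.0%, 5.0% and 0 of 191 cells, the last allowing up to 1.57%, and their median depths were 2782, 2502 and 6184 UMIs before thinning. The neutrophil share was above this background in every library. For Il1r2 the shares in mature neutrophils were 8.7%, 22.0% and 2.8%, for Tlr2 12.7%, 24.6% and 4.4%, and for Il1rn 13.6%, 14.0% and 3.8%, with at most 2.0% of B lineage cells for any of these genes. Thinning left out 87 naive, 347 D2 and 12 D7 mature neutrophils that were shallower, and without thinning 476 of 763 naive, 791 of 1084 D2 and 450 of 695 D7 cells had an Il1b UMI. No single cell held more than 1.44% of the Il1b UMIs of the gate in any of the 3 libraries.

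In Ly6c2-high monocytes of BM, Cd14, Nlrp3 and Tlr2 were above naive at D2, as in mature neutrophils, and at D7 Cd14 and Nlrp3 were still above it. Most cells of this gate lay in 1 cluster, with 505 of 531 naive, 160 of 175 D2 and 727 of 762 D7 cells. Cd14 was at 53.8 CPM in naive, 124 CPM in D2 and 77.9 CPM in D7, ratios over naive of 1.2 (0.94 to 1.47) and 0.53 (0.30 to 0.77). Nlrp3 was at 38.7, 58.3 and 48.7 CPM, ratios of 0.59 (0.24 to 0.94) and 0.33 (0.05 to 0.62), and Tlr2 at 54.3, 79.7 and 62.8 CPM, a D2 ratio of 0.55 (0.26 to 0.85) and a D7 ratio of 0.21 (-0.03 to 0.45). Nlrp3 at D7 was thus above naive in monocytes and below it in both neutrophil gates, a difference that was not tested. Casp1 (49.4, 46.9 and 53.7 CPM) and Myd88 (51.8, 48.8 and 54.3 CPM) had intervals that included 0 at both times.

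Il1b in these monocytes was at 18.0, 62.4 and 12.0 CPM, but the D2 level was that of B lineage cells in the same library (60.3 CPM), and the share of thinned cells with a UMI was 10.4% of 173 monocytes against 5.0% of B lineage cells. The D2 ratio of 1.79 (1.37 to 2.22) turned to -1.92 once the B lineage level was subtracted. That subtraction takes the B lineage level as the same share of UMIs in each cell. Median depths were 8138 UMIs in D2 monocytes and 2502 UMIs in D2 B lineage cells. Size and sign of the Il1b difference in this gate thus depend on how this background is counted, which was not tested. The gate held 531 naive, 175 D2 and 762 D7 cells, and its 4 MHC class II markers summed to 1066, 2107 and 520 CPM, a difference in makeup whose part was not tested. Of the 9 genes, 7 passed the filter on low counts in this gate. In D2 over naive, 2 of the 7 (Cd14 and Il1b) were higher and 0 lower, beside 4.11% and 1.58% of all genes, and in D7 over naive 0 were higher and 0 lower, beside 0.463% and 0.621%. Relative to the median gene the splits of all genes went from 334 and 128 to 271 and 167 at D2 and from 41 and 55 to 57 and 43 at D7.

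Basophils at D2 carried Nlrp3 at 260 CPM (207 to 323), from 83 UMIs in 40 of 56 cells, against 31.5 CPM in naive basophils, from 14 UMIs in 14 of 74 cells. The D2 value was close to that of mature neutrophils (276 CPM), and the cell with most Nlrp3 UMIs held 7.23% of them. Il1b in D2 basophils was at 107 CPM, and Tlr2, Tlr4 and Cd14 at 1 UMI each. This gate was singled out after its values were seen.

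In the sorted monocytes, the sensors Tlr2, Cd14 and Nlrp3, the ligand Il1b and its antagonist Il1rn were lower after CTX, while the intervals of Casp1, Tlr4 and Il1r2 included 0. Tlr2 was at 144 CPM in naive sorted and 74.5 CPM in CTX sorted, a log2 ratio of -0.95 (-1.03 to -0.87). Cd14 was at 170 and 87.7 CPM, a ratio of -0.96 (-1.03 to -0.88), and Nlrp3 at 95.2 and 55.6 CPM, a ratio of -0.78 (-0.87 to -0.68). Il1b was at 28.6 and 7.37 CPM, a ratio of -1.96 (-2.19 to -1.73), the lowest of the 9. The inflammasome sensor and its protease again parted, with Casp1 at 75.1 and 75.6 CPM and Myd88 at 57.5 and 50.5 CPM, a ratio of -0.19 (-0.30 to -0.08). Il1rn was at 3.86 and 2.24 CPM, from 86 and 64 UMIs, a ratio of -0.79 (-1.28 to -0.30). Tlr4 (6.01 and 6.43 CPM) and Il1r2 (1.75 and 1.40 CPM) were low in both sorted libraries.

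Of the 9 genes, 0 were past the fold and higher and 1 (Il1b) lower in CTX over naive sorted, beside 0.337% higher and 0.909% lower of 10673 genes, and the median of the 9 was -0.59 beside 0.04 over all genes. Subsets of the sorted cells differed in share, with the azurophil-rich gate (Mpo, Elane, Prtn3, Ctsg) at 3.49% of naive and 5.73% of CTX cells and the cycling gate at 16.7% and 21.7%. Among cells outside any subset gate (1460 naive and 1793 CTX cells), Tlr2 was at 186 and 106 CPM, Cd14 at 216 and 111 CPM, Nlrp3 at 109 and 65.8 CPM and Il1b at 34.3 and 11.2 CPM. The ratios there were -0.81 (-0.90 to -0.72), -0.96 (-1.04 to -0.87), -0.73 (-0.85 to -0.62) and -1.61 (-1.86 to -1.37), with 0 of the 9 higher and 1 lower beside 0.0998% and 0.808% of all genes. These cells also lay in different clusters, with 608 naive and 15 CTX cells in 1 cluster and 82 naive and 685 CTX cells in another. Over the 6 clusters with at least 20 cells of both libraries, the ratio lay between -1.37 and -0.39 for Tlr2, between -1.15 and -0.52 for Cd14 and between -1.05 and -0.07 for Nlrp3. For Il1b it lay between -1.56 and 0.62. The only value above 0 came from the cluster of 82 naive and 685 CTX cells, from 3 naive UMIs. Its interval of -1.01 to 2.95 included 0, as did that of the lowest value, -4.14 to 0.57. In the cycling gate the ratios were -1.03, -0.66, -0.63 and -2.42 for the same 4 genes.

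Il1b in sorted cells was uneven. In the naive sorted library 28 cells of the MHC class II-rich gate had 371 CPM and held 15.2% of its UMIs, and in the CTX sorted library 1 cell held 33 of the 186 Il1b UMIs found outside the subset gates. At 1000 UMIs per cell, 3.1% (2.3 to 4.2) of naive and 0.73% (0.39 to 1.25) of CTX sorted cells outside the subset gates had an Il1b UMI, at median depths before thinning of 9651.5 and 8925 UMIs. The B lineage share of 1.0% in naive BM comes from another, unsorted library, and how much of the sorted shares is free RNA was not tested. All 8 genes of an early response list, which cells switch on within minutes of stimulation or handling, were lower in CTX sorted as well, from -0.27 for Jun and -0.42 for Fos to -1.72 for Tnf and -4.28 for Cxcl2, and their part in the result was not tested.

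**Figure D5:**
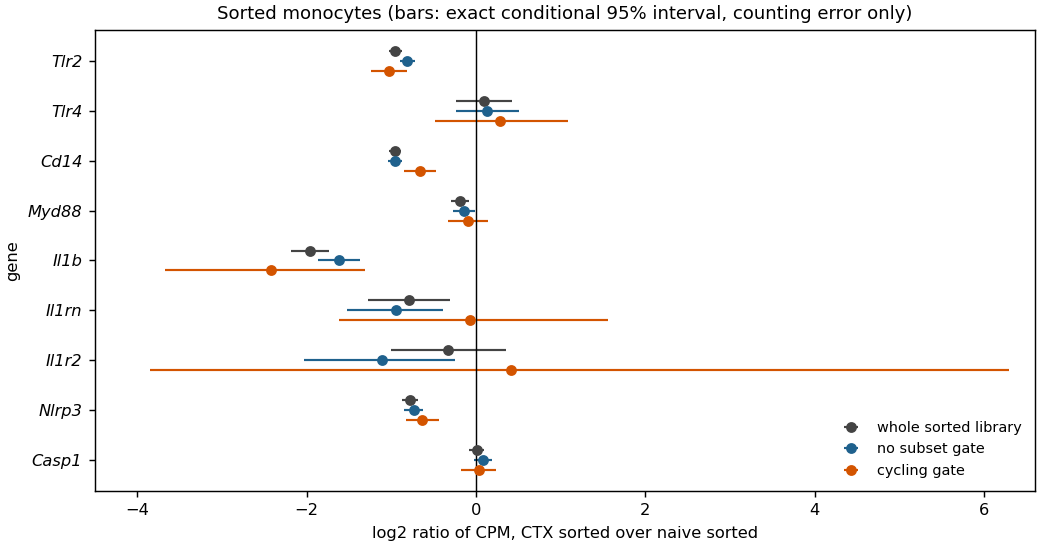
Log2 ratio of CTX sorted over naive sorted monocytes for each gene, over all cells, cells outside any subset gate and cells of the cycling gate, with 95% counting intervals and a line at 0. Tlr2, Cd14, Nlrp3 and Il1b lie below 0 in all 3, and Casp1 and Tlr4 intervals include 0.

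The sorted monocytes and the monocyte gate of whole BM gave different pictures of the same genes. In D7 over naive whole BM the monocyte gate had Cd14 at a ratio of 0.53 (0.30 to 0.77) and Nlrp3 at 0.33 (0.05 to 0.62), while the sorted libraries had -0.96 and -0.78. For Tlr2 the ratios were 0.21 (-0.03 to 0.45) in the gate and -0.95 in the sorted cells. Naive sorted cells carried more of all 8 early response genes than naive or D7 gated monocytes, and CTX sorted cells carried more of 6 of them, with Fos at 5492 and 4105 CPM sorted and at 1036 and 1319 CPM in naive and D7 gated monocytes, and Atf3 at 1198 and 702 CPM sorted and at 117 and 178 CPM gated. The exceptions in CTX sorted were Ier3, at 24.2 CPM against 28.1 and 50.4 CPM gated, and Cxcl2, at 45.8 CPM against 48.6 and 53.4 CPM gated. In the gated monocytes these genes were not lower at D7, with ratios of 0.35 (0.29 to 0.40) for Fos and 0.60 (0.45 to 0.76) for Atf3. The study's methods describe staining and sorting for the sorted cells. For whole BM, which the labels give as CD45+, they describe removal of dead cells. The day of the CTX sorted cells is not in the labels, while the study's text describes day 7. Preparation, treatment and, from the labels alone, day thus cannot be told apart here.

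The wider pathway was read from 67 genes in lists of TLR family members, adaptors and kinases, IL-1 family members, inflammasome genes and NF-kB subunits, of which 66 were in the files. In D2 over naive whole BM, 61 passed the filter, 4 (6.56%) were higher and 1 (1.64%) lower, beside 6.35% and 2.98% of all genes, with a median of 0.50 beside 0.20 over all genes. Higher were Tlr1, a partner of Tlr2 in lipoprotein recognition (2.87 CPM in naive and 9.96 CPM in D2), Tlr13, a receptor for bacterial ribosomal RNA (9.27 and 23.6 CPM), and Nfkb2, which encodes an NF-kB subunit (9.46 and 23.2 CPM). Il33, an alarmin of the IL-1 family, was lower, with 53 UMIs in naive and 1 in D2. In D7 over naive, 1 of 60 (1.67%) was higher and 6 (10.0%) lower, beside 0.941% and 22.5% of all genes, with a median of -0.32 beside -0.57, and Lbp, the lipopolysaccharide-binding protein, was the 1 that was higher (31.3 and 78.4 CPM). Among the lower were Il1rl1, the IL-33 receptor (11.8 and 1.21 CPM), Traf6, the ubiquitin ligase downstream of Myd88 (14.6 and 5.67 CPM), and Cd36, a scavenger receptor that assists Tlr2 (5.01 and 0.294 CPM). Relative to the median gene Il1rl1 (-1.96) and Cd36 (-1.64) stayed past the fold, while Traf6 (-0.65) did not. In D7 over D2, 1 of 60 (1.67%) was higher, which was Lbp, and 24 (40.0%) lower, beside 1.02% and 36.0% of all genes. The median was -0.84 beside -0.76 over all genes. Those lower included Tlr1 (-2.33), Cd36 (-2.91) and Nfkb2 (-2.08), on the log2(CPM + 1) scale.

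Within mature neutrophils, 3 of 32 pathway genes (9.38%, beside 9.36% of all genes) were higher at D2 and 0 lower, namely Tlr13 (65.2 and 139 CPM), Irak3, an inhibitor of TLR and IL-1 receptor signaling (26.9 and 64.5 CPM), and Il1rap, the accessory chain of the IL-1 receptor (17.9 and 53.2 CPM). At D7, 0 of 31 were higher and 2 (6.45%, beside 3.02%) lower, Il18rap, a chain of the IL-18 receptor (220 and 89.5 CPM), and Nlrp12, an NLR protein (96.5 and 40.8 CPM). Immature neutrophils had 1 of 42 (2.38%, beside 4.32%) higher at D2, Tlr13 at 21.5 and 49 CPM, and 1 of 46 (2.17%, beside 2.04%) lower at D7, Il1rap at 14.0 and 4.21 CPM. Tlr13 was past the fold at D2 in both neutrophil gates, at 1.08 and 1.15 on the log2(CPM + 1) scale, but relative to the median gene of each gate it was at 0.70 and 0.94 and no longer past it. On that scaling Irak3 in D2 mature neutrophils, at 0.85, was not past the fold either, while Il1rap, at 1.14, was. In Ly6c2-high monocytes 3 of 47 (6.38%, beside 4.11%) were higher at D2, Tlr1 (8.39 and 24.6 CPM), Lbp (10.1 and 33.3 CPM) and Nlrp1b (33 and 44 UMIs), and 1 (2.13%, beside 1.58%) was lower, Txnip (258 and 118 CPM). At D7 1 of 49 (2.04%, beside 0.463%) was higher, again Lbp (10.1 and 29.0 CPM). In the sorted monocytes 0 of 52 pathway genes were past the fold in either direction, and 0 of 49 outside the subset gates.

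The genes whose pattern was most like each member were sought over 40 profiles of gates and libraries, as the correlation of log2(CPM + 1) among 7000 genes. Profiles of 1 library share its free RNA and depth, so these are descriptions. Tlr2 was closest to Tlr13 (r = 0.94), Lilra6 (0.91) and Sirpb1a (0.91), and Nlrp3 to Dusp1 (0.94), Ccl6 (0.90, a marker of the mature neutrophil gate) and Slc2a6 (0.88). Il1b was closest to Braf (0.91), Gm13822 (0.88) and Rtp4 (0.88), Il1rn to Adam8 (0.89), Osgin1 (0.88) and Slc7a11 (0.88), and Il1r2 to Dhrs9 (0.93), Slfn4 (0.93) and Crispld2 (0.92). Cd14 was closest to App (0.93), Gm21188 (0.92) and Sirpa (0.91), Myd88 to Ptpn1 (0.89), Cdc42 (0.88) and Rnf115 (0.88), Casp1 to Vamp4 (0.92), Cstb (0.85) and Rilpl2 (0.85), and Tlr4, at low counts, to Wdfy2 (0.82), Hmox1 (0.77) and Treml4 (0.77). Among the 9 genes themselves Il1rn and Il1r2 had r = 0.81 and Myd88 and Nlrp3 r = 0.78.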

How the data were processed

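For whole BM (3 libraries) and sorted monocytes (2 libraries), single-cell 3′ libraries were made with 10x V3 reagents. The authors deposited raw UMI counts per gene and barcode, made with Cell Ranger 3.1 on mm10, with no normalization. Seurat 5.0, named in the methods, left no trace in these files. The study's text gives more cells per library than the barcodes used here.

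A barcode entered the analysis if it had 200 genes or more and a mitochondrial share under 20%, the limits of the study's methods. Levels are UMIs per 1000000 UMIs of all genes (CPM) summed over a library or gate, with exact Poisson 95% intervals, and ratios carry exact conditional intervals and shares Clopper-Pearson ones. Gates are the best of 16 marker scores per BM cell (at least 0.2, and 0.05 above the next), where 6.37 to 10.0% of gated cells lay near that margin, or of 4 scores (at least 0.5) per sorted cell. The kit is stranded, and the counting of overlapping genes is not given in the sources used here.

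The gene members and lists were chosen with earlier results of these data known, and the scoring rule for gates and the early response list after seeing the data. Named pathway genes are the 3 highest and 3 lowest past the fold in each whole-library comparison and in the mature neutrophil and monocyte gates, and the immature neutrophil ones were added after their values were seen. With 1 library per condition no test was made. Doublets were kept and removed in an alternative. The steps were tested on simulated data: for D2 over naive BM, 171 of 200 genes changed by 1.5 log2 units among 12682 were past the fold and 0 of 12487 others, and in the mature neutrophil gate 166 of 200 among 4385 and 9 of 4214 others. Both simulated libraries came from 1 pooled profile with counting noise only. Differences in cell makeup, free RNA or between mice were not part of it. Python 3.11.15, numpy 2.4.6, scipy 1.17.1, pandas 2.3.3, scanpy 1.11.5 and matplotlib 3.10.9 were used. Alternatives were other cell filters, scalings, gate margins, clusters, pseudocounts, count filters and thinning depths, subtraction of the B lineage level, and, added after seeing the data, single clusters within a gate.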

Additional observations from a re-analysis of the deposited data

Results flagged for a closer look

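In 10 cases the counting interval of D2 over naive BM lay above 0 and that of D7 over naive below 0 in the same gate. Both ratios share the naive library, and the difference itself was not tested. Between D2 and D7 the log2 ratios of Tlr2 differed by 2.28 in mature and 2.16 in immature neutrophils, and those of Nlrp3 by 1.49 and 2.26. For Il1r2 the differences were 2.49 in mature and 1.60 in immature neutrophils, and for Il1rn 1.75 in immature neutrophils. Il1b differed by 1.07 in mature and 2.12 in immature neutrophils and by 2.37 in Ly6c2-high monocytes, where its D2 level was that of B lineage cells. The cells of the neutrophil gates lay in different clusters in each library, and Il1b at D7 was not below naive in either main cluster of mature neutrophils. In immature neutrophils its D7 ratio was -1.53 in the cluster of 615 naive cells and 0.55 in that of 123. Il1rn at D2 was at -0.16 (-0.41 to 0.10) in the cluster of 615 naive cells. Il1r2 at D7 was at 0.20 (-0.15 to 0.57) in that of 619 naive cells. It was at -0.49 (-0.82 to -0.15) in that of 615 and at -0.98 (-1.64 to -0.28) in that of 123.

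Nlrp3 in D7 over naive BM was below 0 in neutrophils and above 0 in monocytes, by -1.18 for mature neutrophils less monocytes and by -1.22 for immature neutrophils less monocytes. In Ly6c2-high monocytes of D7 over naive BM less CTX over naive sorted monocytes, the ratios differed by 1.49 for Cd14 and 1.11 for Nlrp3. None of these differences was tested, and with 1 library per condition no sample could be compared with its replicates.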

How the results depend on the processing

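No paired analysis was possible because each condition was 1 library and no test between conditions was made. Scaled to the median gene, the counts of the 9 genes past the fold became 1 higher and 0 lower (from 0 and 5) in D7 over D2, 2 higher (from 1) in D7 over naive, 3 (from 5) in D2 immature and 1 (from 2) in D2 mature neutrophils, and 2 lower (from 1) in sorted cells outside subset gates. Without the 20 most abundant genes the count of 5 lower became 1, and with a pseudocount of 0.1 CPM the sorted count of 1 became 2. With the B lineage level subtracted, Il1b in D2 monocytes turned to -1.92, the D2 monocyte counts became 1 higher (from 2) and 1 lower (from 0), and the D7 immature neutrophil counts 1 higher (from 0) and 3 lower (from 1). Clusters gave 1 higher (from 2) for D2 monocytes and 3 lower (from 1) for D7 immature neutrophils, and the mean of the cells' own CPM gave 2 for the latter. With a wider gate margin the log2 Il1b to Il1rn ratio was 3.55 in naive and 4.14 in D2 mature neutrophils and the D2 Il1b to Il1r2 ratio 3.13. Apart from the subtraction, the causes were not tested. Removing doublets (29 to 550 cells per library), all barcodes or a stricter cell filter moved no count of the 9 genes. Of 62 ratios within gates, clusters moved 13 beyond their counting interval and doublet removal 1. An alternative chosen after seeing the data, the cells of a gate within the cluster best filled in both libraries, moved 23 of 62 and changed the sign of 9, none of them past the fold, among them Il1b in D7 mature neutrophils (0.48). Thinning to 2000 UMIs moved 79 of 108 shares of cells, as deeper cells show more transcripts. Among pathway genes, scaling to the median gene turned 1 higher and 6 lower into 7 and 2 in D7 over naive BM, 1 and 24 into 2 and 5 in D7 over D2, 1 lower into 2 in D2 over naive and in D2 monocytes, 3 higher into 1 in D2 mature and 1 into 0 in D2 immature neutrophils. A pseudocount of 0.1 CPM turned 4 higher into 8 and 1 lower into 2 in D2 over naive, 0 higher into 1 in sorted cells, 1 higher into 3 in D2 immature neutrophils and 1 lower into 2 in D2 monocytes. At least 200 UMIs turned 1 lower into 0 in D2 over naive and in D7 immature neutrophils, and 3 higher into 1 in D2 mature neutrophils and into 0 in D2 monocytes. No filter turned 3 higher into 10 and 0 lower into 2 in D2 mature neutrophils, 0 higher into 1 and 2 lower into 9 at D7, 1 higher into 4 in D2 immature neutrophils, and 3 higher into 6 and 1 lower into 2 in D2 monocytes and 0 lower into 1 at D7. Over all genes, the pseudocount turned 804 higher into 1353 in D2 over naive, 117 into 199 in D7 over naive, 128 into 195 in D7 over D2, and in sorted cells 36 higher into 78 and 97 lower into 146, while at least 200 UMIs turned 36 into 17. In mature neutrophils no filter turned 416 higher and 22 lower into 2079 and 429 at D2 and 72 and 132 into 548 and 1063 at D7, and at least 200 UMIs gave 144 and 4, and 16 and 49. In immature neutrophils no filter turned 310 and 46 into 564 and 101 at D2 and 164 lower into 302 at D7, at least 200 UMIs gave 160 and 15 at D2 and 20 higher (from 32) and 52 lower at D7, and the pseudocount gave 81 lower at D2 and 59 and 272 at D7. In monocytes no filter turned 334 and 128 into 866 and 387 at D2 and 41 and 55 into 107 and 194 at D7, and at least 200 UMIs gave 109 and 50 at D2 and 17 lower at D7. Outside the sorted subset gates 10 higher became 18 with no filter, 5 with at least 200 UMIs and 31 with the pseudocount. Depth limits Tlr4 (at most 333 UMIs in a library) and Il1rn and Il1r2 in sorted monocytes.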

Other observations

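In D2 plasma cells 29 Il1rn UMIs were counted, 72.4% of them in 1 cell. Casp1 was found in 3.28% of thinned B lineage cells of naive BM and in 0 of 419 erythroid cells, which allows a share of up to 0.716%.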
